A study of Mus musculus with 48 samples.

Results

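The 7 preadipocyte gatekeepers, transcriptional and signalling factors known to hold fibroblasts in the preadipocyte state, were followed through adipocyte differentiation with and without PPARγ. The members are every probe on the array whose gene symbol is DLK1, SOX9, GATA2, NR2F2, TWIST1, TWIST2 or FOXO1, which gives 8 probes for 7 genes, out of 24613 probes for 18991 symbols. RNA came from 3T3-L1 cells, a mouse fibroblast line that turns into fat cells under hormones, transfected before differentiation with 50 nM of a siRNA pool against PPARγ (PPARγ knock down, KD) or of a non-targeting pool (control siRNA). In both groups confluent cells were treated for 48 h from day −2 with dexamethasone at 0.25 µM plus the phosphodiesterase inhibitor IBMX at 0.5 mM, and from day 0, again for 48 h, with rosiglitazone, a PPARγ ligand, at 1 µM plus insulin at 5 µg/ml. The array labels give the day and not the treatment. The study sets the first treatment 2 days before the other, and the treatment days given here were read from that. Cells were harvested on days −2, 0, 1, 2, 3, 4, 5 and 6 in 3 independent biological replicates, so that 24 arrays stood on each side. The inducers and the ligand were therefore given to both groups, the knock down began in fibroblasts, and all material came from 1 cell line.

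PPARγ is the nuclear receptor that drives fat cell formation, and preadipocytes carry factors that oppose it. DLK1 (preadipocyte factor 1) is a membrane protein with EGF-like repeats, related to Notch ligands, whose shed outer part blocks adipogenesis and acts upstream of SOX9, a factor that represses C/EBP genes. GATA2 and the orphan receptor NR2F2 (COUP-TFII) restrain PPARγ and C/EBP activity, TWIST1 and TWIST2 are basic helix-loop-helix repressors of mesenchymal cells, and FOXO1 is a forkhead factor that insulin signalling keeps out of the nucleus.

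The start-site regions of the 3 genes called on the largest number of days are shown because GATA2, DLK1 and TWIST1 carried most of the differences between the groups: each was lower in control cells on day 2 than on day −2 and was higher in the KD on that day. They are RefSeq sequences on GRCm38.p6, from 250 bases before to 50 after an annotated start, and the table held such a region for 6 of the 7 genes. Capitals mark, on either strand, GTAAACA (bound by forkhead factors of the FOXO kind), TGACG (the core of the cAMP response element) and CANNTG (the E-box, bound by helix-loop-helix factors). The strand is plus in each case.
Dlk1, chr12:109452573-109452872: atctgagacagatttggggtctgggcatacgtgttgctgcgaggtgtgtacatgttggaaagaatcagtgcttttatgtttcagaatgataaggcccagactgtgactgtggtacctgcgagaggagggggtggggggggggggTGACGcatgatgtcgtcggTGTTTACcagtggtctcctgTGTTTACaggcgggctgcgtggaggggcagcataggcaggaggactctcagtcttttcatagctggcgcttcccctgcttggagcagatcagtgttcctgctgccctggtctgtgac
Gata2, chr6:88198414-88198713: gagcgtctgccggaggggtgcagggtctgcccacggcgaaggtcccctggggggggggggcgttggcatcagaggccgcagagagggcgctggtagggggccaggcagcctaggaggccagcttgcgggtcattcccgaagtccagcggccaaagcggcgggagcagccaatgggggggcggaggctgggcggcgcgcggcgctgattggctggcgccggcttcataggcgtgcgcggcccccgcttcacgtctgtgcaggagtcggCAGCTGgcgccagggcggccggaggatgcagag
Twist1, chr12:33957421-33957720: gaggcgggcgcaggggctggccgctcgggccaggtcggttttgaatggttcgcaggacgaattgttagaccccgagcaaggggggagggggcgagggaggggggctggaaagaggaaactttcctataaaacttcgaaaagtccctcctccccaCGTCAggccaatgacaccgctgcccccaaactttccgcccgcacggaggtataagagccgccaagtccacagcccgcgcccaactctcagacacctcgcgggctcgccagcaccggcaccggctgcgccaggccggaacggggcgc

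The Dlk1 region held 2 FOXO matches, at −87 and −67 from the start, a motif found in 3.65% of 32851 RefSeq promoter regions of the same length, and a TGACG match at −106, a motif found in 20.8%. The Twist1 region held TGACG at −96 and TATAAA, found in 13.6%, at −126. Neither Twist region held an E-box, which 72.3% of all regions have. The Gata2 start shown had an E-box 18 bases after it, while a Gata2 start further upstream had none of the 7 motifs searched, which also took in AGATAA (11.2% of regions), AGGTCA (16.3%) and AGAACA (19%). These matches are letters in a window and not measured binding.

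The knock down itself was seen on every array. The PPARG probe 6130632 had log2 signals of 10.00 to 12.22 in control siRNA cells (median 11.54, 24 arrays) and of 7.58 to 9.81 in PPARγ KD cells (median 9.35, 24 arrays), with no overlap. The difference over all days was −2.34 (SE 0.04) on the log2 scale, and this probe still rose in KD cells, from 7.68 on day −2 to 9.78 on day 6. PPARG probe 1990168 differed by −2.51 and was above background on 24 control and 5 KD arrays. PPARG probe 2680603 differed by −1.21 and was above background on 8 control and 0 KD arrays. The test across days in KD cells was called for 1990168 and not for 2680603. Of 11 adipocyte marker probes 10 were called lower in the KD over all days, against 6.74% of all probes. The other, LPL probe 1450735, was lower by 0.41 and not called. Among those called, LEP was above background on 1 array, CD36 on 9 and FABP4 on 12, all from control cells. The defining markers of macrophage, endothelial, myogenic and osteoblast cells were above background on no array (all probes of those lists). Of 6 cartilage probes, those of COL2A1 and MATN1 were above background on no array, while a probe each of ACAN and COMP was on all 48, and COMP was lower in the KD by 0.41. Of the fibroblast list, CD34 was above background on no array and the other 13 probes on all 48. Between 36.8% and 40.4% of probes were above background in replicates 1 and 2 and between 33.4% and 35.4% in replicate 3, and the member probes were read by 17 to 77 beads on an array (median 37).

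Averaged over all 8 days, GATA2, DLK1, TWIST1, NR2F2 and TWIST2 were higher in the PPARγ KD, while the differences of SOX9 and FOXO1 did not pass the test. Differences are log2 values of normalised signal, KD minus control, tested with limma and Bonferroni adjustment over all 24613 probes, and called at an adjusted p of at most 0.05. Of the 8 member probes 5 were called higher and 0 lower. Over the whole array 6.37% of probes were called higher and 6.74% lower, and among the 7121 probes above background on all 48 arrays, which hold 7 of the members, 15.3% were called higher. The 7 genes were chosen with earlier results of these data known, so their counts beside these shares, here and below, are no independent test. The differences on single days are shown in the plot by day.

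GATA2 had the largest difference of the members, 0.57 (SE 0.04, adjusted p = 1.21e-13), a 1.48-fold higher signal, and the KD array was higher in 20 of 24 pairs of the same day and replicate. DLK1 was 0.43 higher (SE 0.03, adjusted p = 1.25e-11), in 23 of 24 pairs. TWIST1 was 0.38 higher (SE 0.03, adjusted p = 3.25e-11), in 20 of 24 pairs. These 3 kept their call without each replicate in turn. The 24 pairs are 8 days within 3 replicates and not 24 independent replicates, and the SE treats the arrays of different days as independent. Between the 3 replicates the difference over all days had an SD of 0.07 for GATA2, 0.11 for DLK1 and 0.08 for TWIST1. For NR2F2 and TWIST2 that SD was 0.08 and 0.09. For NR2F2 the difference was 0.31 (SE 0.03, adjusted p = 8.56e-07) and for TWIST2 0.22 (SE 0.03, adjusted p = 0.000152), higher in 23 and 19 of 24 pairs. Without replicate 1 the adjusted p was 0.0752 for NR2F2 and 0.509 for TWIST2, and without replicate 2 it was 0.0516 and 1. TWIST2 was also not called without the day 2 arrays (0.18, adjusted p = 0.0722) or in an additive model of siRNA, day and replicate with each probe's own variance (adjusted p = 0.118), and NR2F2 was not called without the replicate block (adjusted p = 1). SOX9 differed by 0.09 (95% interval 0.04 to 0.15, adjusted p = 1), called with quantile normalization (0.16, adjusted p = 0.00133). Without the day 2 arrays the SOX9 difference was −0.0069 and not called. FOXO1 differed by −0.20 (95% interval −0.29 to −0.11, adjusted p = 1). The other NR2F2 probe, 3170609, was above background on 0 of 48 arrays and has no level to compare.

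**Figure D1:**
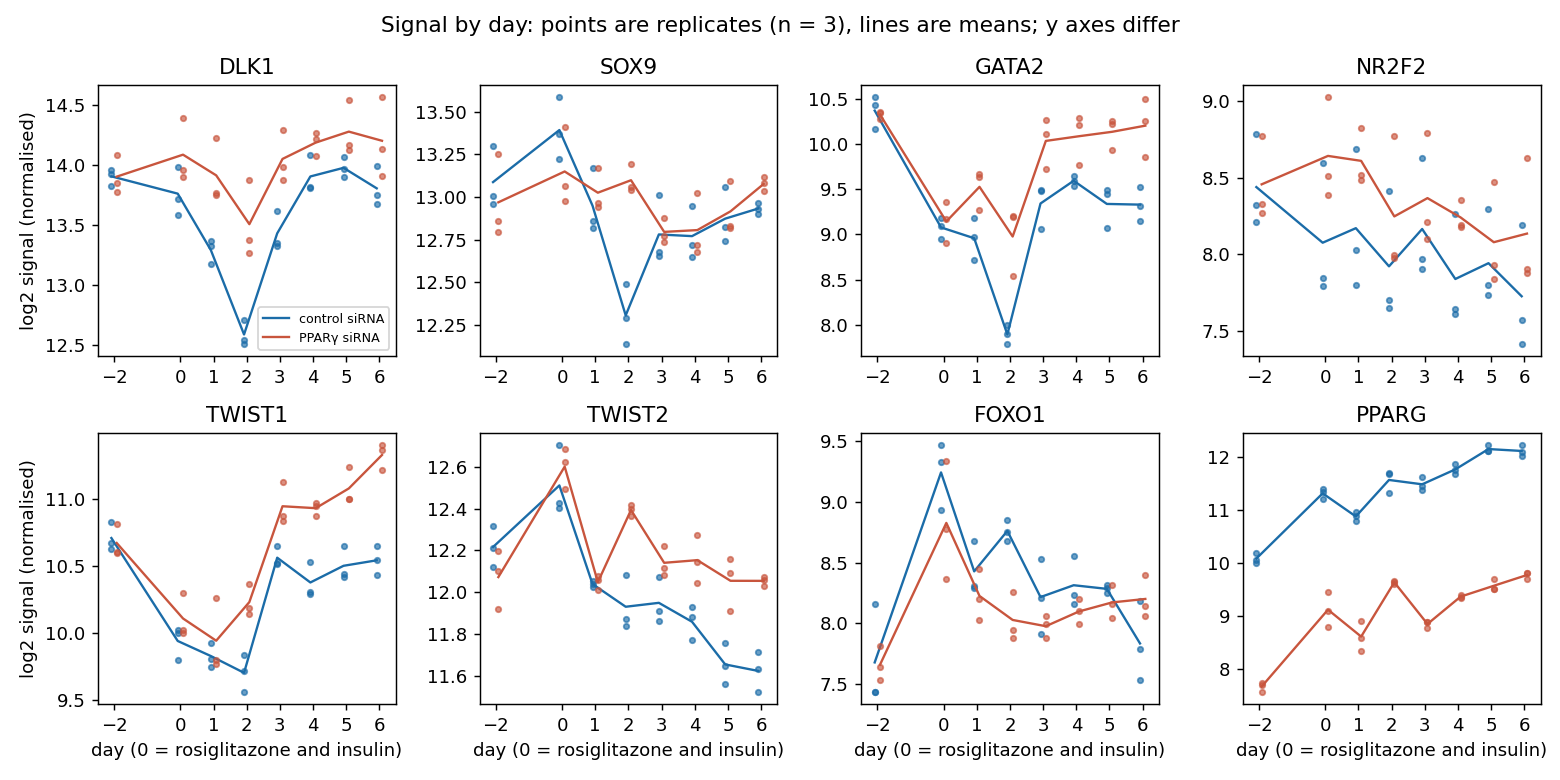
Normalised log2 signal (vertical axis, a scale of its own in each panel) by day of differentiation for the 7 genes and PPARG, with a point for each of 3 replicates and a line through the means. On day −2 the groups overlapped for all 7 genes, and on day 2 the control siRNA cells were lower than the PPARγ KD cells for DLK1, SOX9, GATA2, TWIST1 and TWIST2.

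Before the inducers were given, no member differed between the groups by the test. On day −2 the replicates overlapped for each of the 7 genes and 0 members were called, where 0.861% of all probes were called. At an unadjusted p under 0.05 there were also 0 members, against 3210 of 24613 probes overall. DLK1 stood at 13.90 in both groups, and GATA2 at 10.37 in control and 10.33 in KD cells. The differences ranged from −0.14 for TWIST2 to 0.02 for NR2F2. The PPARG difference was already −2.41 on that day with probe 6130632.

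In control siRNA cells the signal of every gene of the set changed over the days. The test across days was called for 7 of 8 probes (23.5% of all probes, and 59.9% of those above background on all arrays), and the exception was the NR2F2 probe below background. Without replicate 1 or 2 the other NR2F2 probe was not called either (adjusted p = 1). On day 2 DLK1, SOX9, GATA2 and TWIST1 were lower than on day −2, 4 of 8 probes against 6.98% of all probes. On day 3 DLK1, SOX9 and TWIST1 were no longer called different from day −2, and GATA2 was.

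GATA2 fell furthest. Its control replicates started at 10.52, 10.43 and 10.17 on day −2. They read 9.18, 9.10 and 8.95 on day 0, then 7.90, 8.0 and 7.79 at the low point of day 2. All 3 replicates on day 2 thus lay below all those of the earlier days, and the change from day −2 was −2.48 (SE 0.10, adjusted p = 4.73e-20), to 0.18 of the starting level. From day 3 GATA2 returned part of the way, between 9.33 and 9.59, and was still called lower than on day −2 on each of days 3 to 6 (−0.78 to −1.04).

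DLK1, the shed inhibitor, fell and returned in control cells. Its replicates were 13.83, 13.93 and 13.96 before induction and 12.54, 12.51 and 12.71 on day 2. By day 4 they were again at 13.82, 13.81 and 14.08. The change to day 2 was −1.32 (SE 0.09, adjusted p = 1.27e-12), and that to day 1 was −0.62 (adjusted p = 0.00112). On day 6 the mean was 13.80, 0.10 below the start and not called. In order of level, days 5, −2 and 4 did not differ beyond the spread of their replicates. Days 6 and 0 followed, also within their spread, and then days 3, 1 and 2, each below the one before.

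SOX9, which acts downstream of DLK1, had its lowest control mean on the same day. The replicates were 13.01, 12.96 and 13.30 on day −2 and 12.14, 12.29 and 12.49 on day 2, a change of −0.78 (SE 0.07, adjusted p = 1.55e-08). It was the only day called for this gene, and day 0 had the highest mean, 13.39.

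TWIST1 and TWIST2, close relatives, ran on different courses. TWIST1 was lower than on day −2 on days 0, 1 and 2 (−0.77, −0.88 and −1.01) and back at 10.56 on day 3 against 10.71 at the start. TWIST2 was called on none of these days and fell later, with changes of −0.56 on day 5 and −0.59 on day 6 (adjusted p = 0.00105 and 0.000326). Without replicate 1 or 2 both late TWIST2 calls were lost (adjusted p = 0.300 and 1 on day 6). NR2F2 was called lower on day 4 (−0.60) and day 6 (−0.71, adjusted p = 0.000163), calls that were also lost without replicate 1 (adjusted p = 1 on both days).

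FOXO1 moved the other way. Its control replicates were 7.44, 7.43 and 8.16 on day −2 and 9.33, 8.94 and 9.47 on day 0, with no overlap. The rise was 1.57 (SE 0.13, adjusted p = 2.34e-10), or 2.96-fold. It was still 0.75 above the start on day 1 (adjusted p = 0.0187) and 1.08 on day 2 (adjusted p = 6.17e-06). From day 3 no change was called, and the mean on day 6 was 7.83.

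Of 20 control changes called over days 0 to 6, 11 were kept without each replicate in turn, among them the day 2 falls of DLK1, SOX9, GATA2 and TWIST1 and the day 0 rise of FOXO1. Over all probes the control calls ran from 1063 on day 3 to 3423 on day 2. How many of those were kept was not counted. Beside the late NR2F2 and TWIST2 calls, the adjusted p without replicate 2 was 0.0755 for TWIST1 on day 0, 0.294 for GATA2 on day 4, 0.125 for FOXO1 on day 2 and 1 for FOXO1 and DLK1 on day 1.

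**Figure D2:**
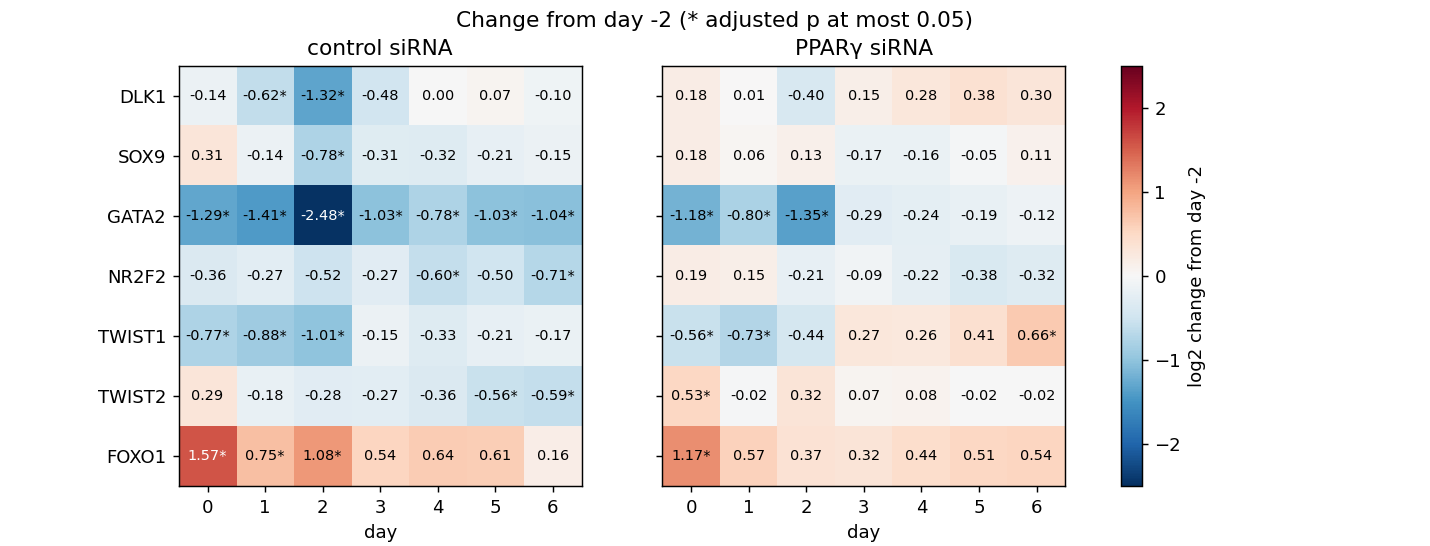
Change in log2 signal from day −2 for each gene (rows) and later day (columns) in control siRNA and PPARγ KD cells, coloured on 1 scale, with an asterisk where the adjusted p was at most 0.05. In control cells the day 2 column holds −1.32 for DLK1 and −2.48 for GATA2, against −0.40 and −1.35 in the KD, and FOXO1 rises in both panels on day 0.

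In PPARγ KD cells the early falls were seen for GATA2 and TWIST1 and the later ones were not called. The test across days was called for 6 of 8 probes (16.5% of all probes, and 42.5% of those above background on all arrays), with SOX9, which ranged over 0.35 between day means, not called. Without replicate 2 the test held for GATA2 and TWIST1, and the adjusted p was 1 for DLK1, NR2F2, TWIST2 and FOXO1. GATA2 fell early (day 0 −1.18, day 1 −0.80, day 2 −1.35 with an adjusted p of 2.76e-11), and was the only member called lower on day 2, where 1.17% of all probes were. By day 3 it was back at 10.04 and by day 6 at 10.20, not called different from the 10.33 of day −2. FOXO1 rose on day 0 in the KD too, by 1.17 (adjusted p = 8.94e-07), and TWIST2 rose by 0.53 on that day (adjusted p = 0.00370). TWIST1 fell by 0.56 on day 0 and by 0.73 on day 1. Of the 8 KD changes called over days 0 to 6, the 3 kept without each replicate in turn were those of GATA2 on days 0 and 2 and of FOXO1 on day 0. Over all probes the KD calls ran from 388 on day 3 to 1818 on day 0, and how many were kept was not counted.

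On day 6, control siRNA cells had 3 of 8 member probes called against day −2, each lower (GATA2 −1.04, NR2F2 −0.71 and TWIST2 −0.59), where 6.24% of all probes were called. KD cells had 1 of 8, TWIST1, which was higher by 0.66 (adjusted p = 3.50e-05), where 4.4% of all probes were called. The control TWIST1 change on that day was −0.17 and not called. Without replicate 2 the KD rise of TWIST1 was 0.60 with an adjusted p of 1.

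The day with the most member calls between the groups was day 2. On that day 6 of 8 member probes were called, against 8.92% of all probes in either direction. Among probes above background on all arrays 12.5% were called higher, and 5 of 7 members were. The median of all probes on day 2 was −0.12, a value that takes in probes below background. Averaged over all days the median was −0.03 for all probes, and 0.02 for probes above background on at least 3 arrays.

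The GATA2 replicates on day 2 were 7.90, 8.0 and 7.79 in control and 9.19, 9.21 and 8.54 in KD cells, a difference of 1.08 (SE 0.10, adjusted p = 1.82e-08), or 2.12-fold. DLK1 read 12.54, 12.51 and 12.71 in control and 13.37, 13.27 and 13.87 in KD cells, a difference of 0.92 (SE 0.09, adjusted p = 5.93e-08). SOX9 read 12.14, 12.29 and 12.49 in control and 13.04, 13.06 and 13.19 in KD cells, a difference of 0.79 (SE 0.07, adjusted p = 1.04e-08). No KD replicate of these genes overlapped with a control replicate, and the share of all probes for which this held was not counted. They were the 3 day calls, of the 15 made over all days, that were kept without each replicate in turn, while the other 12 were lost without at least 1 replicate. The share kept among the calls of all probes was not counted.

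TWIST1 was 0.53 higher in the KD on day 2 (adjusted p = 0.00421) and TWIST2 0.46 higher (adjusted p = 0.0451). The TWIST2 replicates were 11.84, 11.87 and 12.08 in control and 12.36, 12.40 and 12.42 in KD cells. FOXO1 was the one member lower in the KD, by 0.73 (SE 0.13, adjusted p = 0.0283), with replicates of 8.75, 8.68 and 8.85 in control and 7.94, 7.88 and 8.26 in KD cells. None of these groups overlapped, and the share of all probes without overlap on this day was not counted. The calls of TWIST1, TWIST2 and FOXO1 on this day were lost whichever replicate was left out, with an adjusted p of 0.276, 0.139 and 0.248 without replicate 3 and of 0.352, 1 and 1 without replicate 1, and of 1 for each without replicate 2.

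Markers of fibroblasts moved in the same way on this day. The log2 of their summed signal, in which bright probes weigh most, fell in control cells from 17.38 (SD 0.06, n = 3) on day −2 to 16.31 (SD 0.07) on day 2. It stood at 17.18 (SD 0.04) on day 3. In KD cells it was 17.02 (SD 0.06) on day −2, below the control, and 16.99 (SD 0.02) on day 2, above it. Of 14 fibroblast probes 10 were called higher in the KD on day 2, where 1166 of 24613 probes were, and 5 over all days, against 6.37%. Among probes above background on all arrays these shares were 12.5% and 15.3%. The 10 took in every probe of DCN and COL3A1, while VIM, COL1A1, COL1A2 and CD34 were not called on day 2. No DCN probe was called over all days. In control cells the root mean square change between means of neighbouring days was 0.54 from day 2 to day 3, more than the 0.37 from day 1 to day 2, over 9217 probes, while the earlier steps were larger (0.65 from day −2 to day 0 and 0.60 from day 0 to day 1). The part of these shifts in the members' values was not tested. Fewer fibroblasts and less RNA per cell cannot be told apart in pooled RNA.

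**Figure D3:**
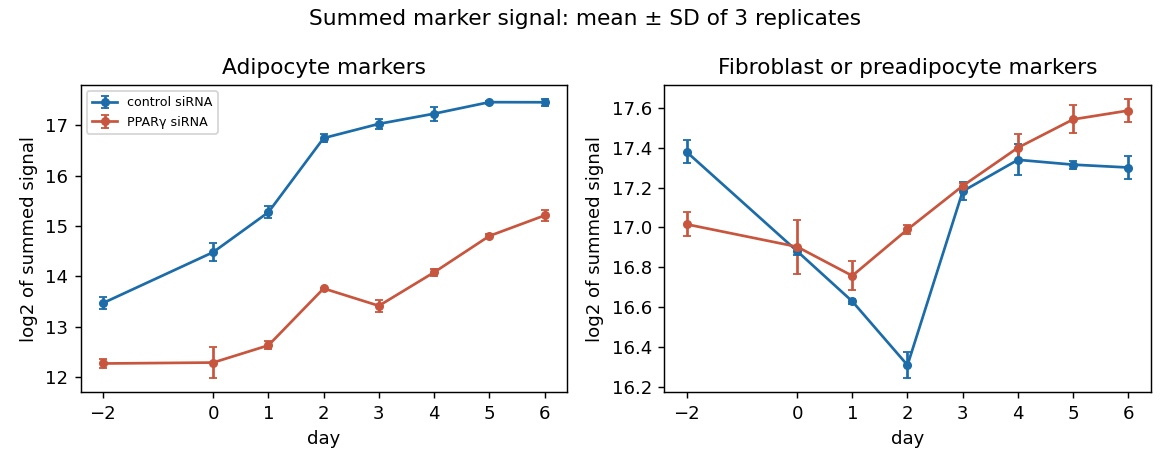
Log2 of the summed signal of adipocyte and fibroblast marker probes by day (mean ± SD of 3 replicates, control siRNA and PPARγ KD). Fibroblast markers in control cells were lowest on day 2, at 16.31, and the adipocyte sum was higher in control than in KD cells on each day.

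On the other days the effect differed from gene to gene. NR2F2 was called on day 0 alone, 1 of 8 probes against 3.03% of all probes, and was 0.57 higher in the KD (SE 0.10, adjusted p = 0.0185). Its replicates were 7.84, 7.79 and 8.59 in control and 8.39, 8.51 and 9.03 in KD cells. The groups overlapped, since replicate 3 was high in both, and the KD was higher within each of the 3 replicates, as it was on every later day. Without replicate 1 or 2 the adjusted p was 1.

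DLK1 was the member called on day 1 (0.62, adjusted p = 0.000841), where 2.91% of all probes were called, with replicates of 13.33, 13.17 and 13.37 in control and 13.76, 13.75 and 14.22 in KD cells. On day 3 DLK1 (0.62, adjusted p = 0.000944) and GATA2 (0.69, adjusted p = 0.00121) were called, 2 of 8 against 2.76% of all probes. Both genes had separate groups on these days, and the share of all probes that had them was not counted. GATA2 on day 1 missed the limit at 0.57 (adjusted p = 0.0539). From day 4 the DLK1 difference was 0.28 to 0.40 and not called. Without replicate 1 the adjusted p on day 1 was 0.211 for DLK1, and on day 3 it was 1 for both genes.

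TWIST1 and GATA2 were the only members called on single days from 4 to 6. TWIST1 was called on day 4 (0.55, 1 of 8 probes against 2.4% of all). Day 5 had calls for both genes (GATA2 0.80, TWIST1 0.58, 2 of 8 against 3.24%), and so had day 6 (GATA2 0.87, TWIST1 0.79, 2 of 8 against 3.88%). The TWIST1 replicates on day 6 were 10.65, 10.43 and 10.55 in control and 11.22, 11.37 and 11.40 in KD cells, and those of GATA2 were 9.53, 9.31 and 9.15 against 10.49, 10.25 and 9.86. Neither gene overlapped between the groups on any day from 4 to 6. The same held for TWIST2, for DLK1 on day 5 and for SOX9 on day 6, none of them called on these days. The share of all probes without overlap was not counted. Without replicate 2 the adjusted p on day 6 was 0.123 for TWIST1 and 0.0997 for GATA2.

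**Figure D4:**
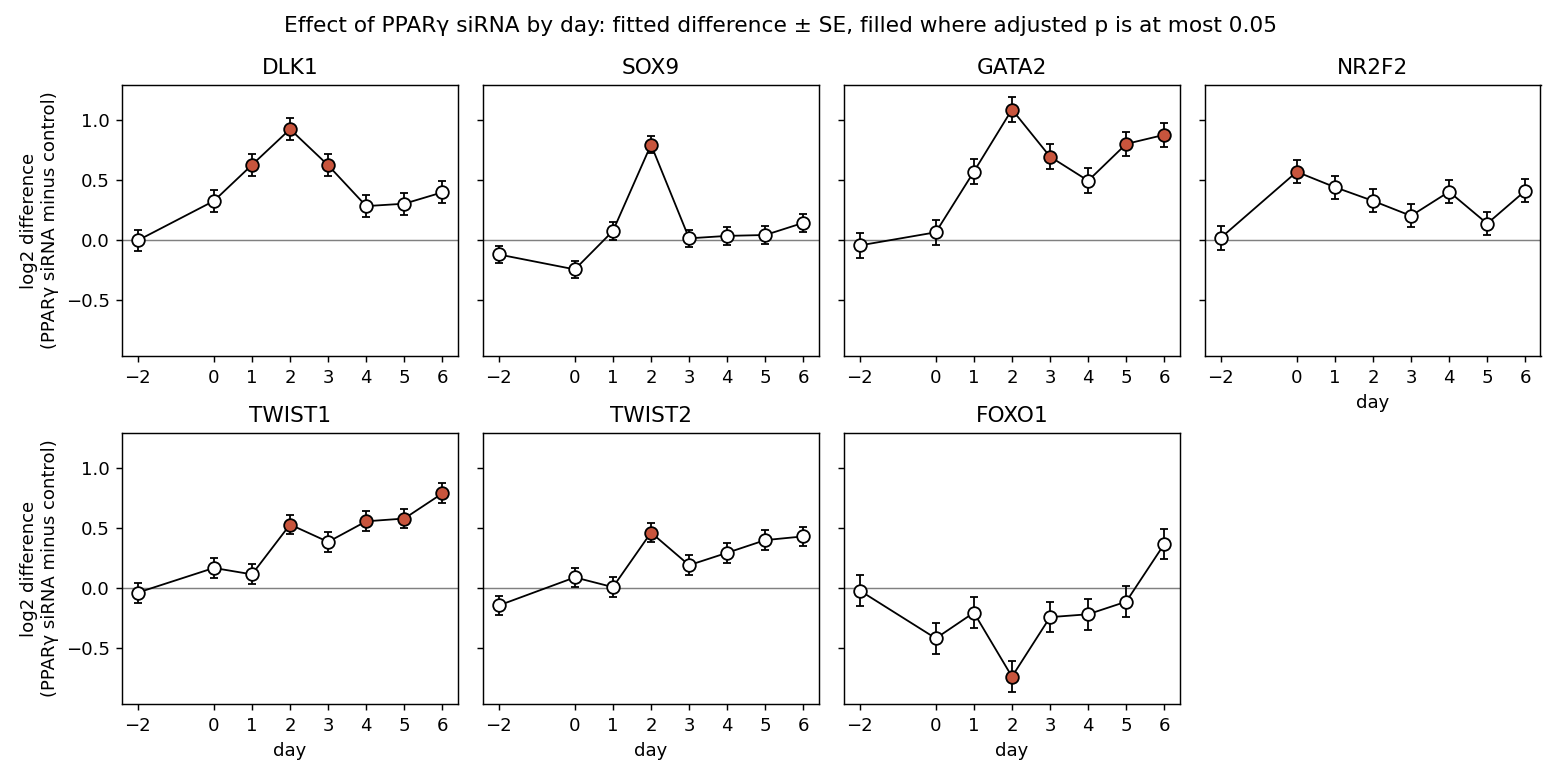
Difference in log2 signal, PPARγ KD minus control siRNA (fitted value ± SE from 3 replicates on each side), by day for the 7 genes on 1 scale, with filled points where the adjusted p was at most 0.05. The day 2 points are the highest for DLK1, SOX9, GATA2 and TWIST2, the day 6 point is the highest for TWIST1 at 0.79, and FOXO1 is lowest on day 2 at −0.73.

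The pooled late days, 4 to 6, asked which differences persisted in the differentiated state. In a fit of these 18 arrays alone, 2 of 8 member probes were called higher, GATA2 by 0.72 (SE 0.06, adjusted p = 1.38e-05) and TWIST1 by 0.64 (SE 0.05, adjusted p = 1.30e-05), against 1.54% of all probes. In both the KD was higher in 9 of 9 pairs, which are 3 days within 3 replicates. DLK1 (0.33, adjusted p = 0.422), TWIST2 (0.37, adjusted p = 0.064) and NR2F2 (0.32, adjusted p = 1) were also higher in 9 of 9 pairs but were not called. With quantile normalization DLK1 and TWIST2 were called as well (adjusted p = 0.0319 and 0.00252), and without replicate 2 TWIST1 was not (adjusted p = 0.0568). SOX9 differed by 0.07 (95% interval −0.03 to 0.18) and FOXO1 by 0.01 (95% interval −0.11 to 0.14).

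Whether the effect itself grew between days 0 to 2 and days 4 to 6 was tested as a difference of differences. Of the 8 member probes 0 were called, where 3.63% of all probes were, while at an unadjusted p under 0.05 there were 5 of 8, against 4847 of 24613 probes overall. TWIST1 was nearest, with an effect of 0.27 on days 0 to 2 and 0.64 on days 4 to 6, a gain of 0.37 (SE 0.07, adjusted p = 0.0736). The gain was called with quantile normalization (adjusted p = 0.00303), with a filter on dim probes (0.00962) and without the day 2 arrays (0.50, adjusted p = 0.00946). FOXO1 went from −0.45 to 0.01, a change of 0.46 (SE 0.10, adjusted p = 1), and DLK1 from 0.62 to 0.33, a change of −0.30 (SE 0.07, adjusted p = 1).

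The genes that work with each member were taken from lists of textbook partners. Over all probes the median difference across the 8 days was −0.03, and 6.37% were called higher and 6.74% lower. In the Notch pathway, to which DLK1 is related, 2 of 33 probes were called higher and 3 lower in the KD, with a list median of −0.05. NCSTN, a subunit of the gamma-secretase that cleaves Notch, was higher by 0.23, while PSEN2, a catalytic subunit of the same enzyme, was lower by 0.72. DLK2, the closest relative of DLK1, was called higher but lay above background on 3 control and 9 KD arrays. The fringe genes MFNG and LFNG were called lower, MFNG with 7 control arrays above background, and LFNG was above background on no array and has no level to compare. The receptor NOTCH1 (−0.10) and its target HES1 (−0.05) were not called.

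Among GATA factors and their FOG cofactors 2 of 7 probes were higher and 1 lower (median −0.03). ZFPM2 (FOG2), which binds GATA proteins and is known to help them oppose adipogenesis, was higher by 0.33 (adjusted p = 4.71e-06), and on day 2 by 0.99. GATA3 was higher by 0.31 and GATA6 lower by 0.37. ZFPM2 and GATA3 thus had the direction of GATA2, and GATA6 did not.

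The partners of Twist proteins and the Id proteins that capture those partners had 3 of 13 probes higher and 1 lower (median 0.13). ID4, an Id inhibitor, was higher by 0.49 and TCFE2A and TCF12, which pair with Twist on E-boxes, by 0.28 and 0.25, while ID1 was lower by 0.23. On day 2, 4 of the 13 were higher, ID4 (1.89), ID3 (0.93), ID2 (0.85) and TCF4 (0.60), where 1166 of 24613 probes were called higher on that day. Of COUP-TF relatives and corepressors 0 of 9 probes were called in either direction (median −0.0014), with the corepressor NCOR1 at −0.13.

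Of 19 probes for other SOX factors 1 was higher, SOX4 (0.28), and 2 were lower, both for SOX5 (−0.28 and −0.19), with a median of −0.03. Both SOX4 (1.00) and a SOX5 probe (0.56) were higher in the KD on day 2. The FOXO list of relatives, kinases and responding genes had 3 of 20 probes higher and 2 lower (median 0.0045). PDK4, a kinase that turns off pyruvate dehydrogenase, was higher by 0.63, SGK by 0.24 and SIRT2, a deacetylase of FOXO1, by 0.22. BCL6, a repressor, was lower by 0.57, and KLF15 by 1.08 with 17 of 24 control arrays above background. Members of the FOXO list thus moved in both directions. Of the 19 partner probes called over all days and above background on an array, 4 (PSEN2, BCL6, KLF15 and PDK4) were called under every alternative setting and the others lost their call under at least 1, with no change of sign. The calls of ZFPM2, ID4, SOX4, GATA3, DLK2 and SIRT2 were among those lost without the day 2 arrays.

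The probes whose means over the 16 combinations of siRNA and day were most like each member were sought among 9216 probes, as a description with no test, since the points share replicates and arrays. GATA2 was followed most closely by ATBF1 (r = 0.974), PDLIM2 (0.961) and FRK (0.960), and all of these were called higher in the KD over all days. DLK1 was followed by VEZF1 (0.953) and TWIST1 by 6030419C18RIK (0.953), COLEC12 (0.943) and CTSK (0.938). The nearest probes were RAP1B for SOX9 (0.882), D11WSU99E for NR2F2 (0.937), TRIM26 for TWIST2 (0.940) and RXRB, a partner receptor of PPARγ, for FOXO1 (0.929).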

How the data were processed

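Total RNA was hybridised to 48 single-colour Illumina mouse bead arrays. The authors deposited the BeadStudio 3.3.7 table with no normalization: an average signal (intensity), a detection value (a fraction, 1 minus the detection p-value) and a bead number for each probe and array. Columns were matched to samples by name; the 240 other value columns were not used.

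Intensities were background-corrected by normexp from the detection values (offset 16, limma 3.58.1, R 4.3.3), scaled between arrays on rank-invariant probes (ranks between percentiles 50 and 90 shifting by at most 0.05; factors 0.730 to 1.58) and turned into log2 values. A probe was above background at a detection p under 0.01. limma fitted a mean for each siRNA and day with the replicate number as a block, since the study's analysis removed a batch effect. Same-numbered arrays of the 2 groups deviated together in all 24 day pairs (correlation 0.631 to 0.928 over 9217 probes). The late contrast (days 4 to 6) used a separate fit of 18 arrays. Adjusted p-values are Bonferroni over 24613 probes, for each contrast by itself, called at 0.05. On simulated data with known changes, 98 of 100 probes changed by 0.5 (log2) were recovered over all days and 14 of 100 on day 2. At a change of 1 on day 2 it was 90 of 100, and 0 unchanged probes were called. The simulated noise was drawn for each array by itself around the fitted model. Dependence between arrays beyond the replicate block was therefore not tried.

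The 7 genes, the partner lists and the cell type markers were chosen with earlier results of these data known. All members are named, with list genes where called or well known, and the 3 probes most like each member by Pearson correlation are sought among probes above background on at least 24 arrays. Alternatives changed the normalization, background, offset, dim-probe filter, block, model, multiple testing correction, replicates and the day 2 arrays, the last added after seeing the data. Promoter regions came from RefSeq (GRCm38.p6). Figures used matplotlib 3.10.9. The number of arrays limits the precision.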

Additional observations from a re-analysis of the deposited data

Results flagged for a closer look

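For 4 genes all 3 replicates moved one way on one day and all 3 the other way on another day, and the difference between these days was not tested. SOX9 was higher in the PPARγ KD by 0.79 on day 2 and lower on day 0 (−0.24), a gap of 1.03 on the log2 scale. FOXO1 was higher on day 6 (0.37) and lower on day 2 (−0.73), a gap of 1.1. TWIST1 was higher on day 6 (0.79) and slightly lower on day −2 (−0.04), a gap of 0.82. TWIST2 was higher on day 2 (0.46) and lower on day −2 (−0.14), a gap of 0.60. The days were picked as the most different of 8, and in each pair only 1 day was called by limma with Bonferroni adjustment.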

How the results depend on the processing

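No member that was called in either setting changed direction: of 752 alternative values of 78 member results, 620 stayed on their side of the threshold, 112 lost a call, 20 gained one and 0 reversed, while 22 of 1103 values uncalled in both settings had the opposite sign. The cause of the changes was not tested, other than that fewer arrays enter the fits that leave out a replicate.

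Arrays of the same replicate number deviated together, and whether they pair within a day, beyond a shift shared by a replicate over all days, was not tested. With a block for each day and replicate number, 2430 probes and 5 members were called over all days. Without the replicate block, probes called fell from 3227 to 1769 over all days, from 1307 to 568 over days 4 to 6, from 6895 to 3481 summed over single days, from 894 to 426 for late minus early, from 5776 to 3210 for the control course and from 4068 to 2043 for the KD course. Members called without the block numbered 1 in place of 2 over days 4 to 6 (GATA2 lost, adjusted p = 0.152), 2 in place of 15 on single days and 2 in place of 6 for the KD course. With Benjamini-Hochberg adjustment the probe counts were 7605, 5125, 22207, 2939, 9813 and 8876 in the same order, and members called were 5 over days 4 to 6, 32 on single days and 3 for late minus early. The additive 3-way ANOVA with each probe's own variance called 2135 probes over all days.

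Leaving out a replicate gave 1749 to 2591 probes over all days, 547 to 902 over days 4 to 6, 2845 to 5452 on single days, 331 to 692 for late minus early, 2832 to 4072 for the control course and 1628 to 2571 for the KD course. Members called then ranged from 3 to 5 over all days, 1 to 2 over days 4 to 6, 3 to 10 on single days and 2 to 4 for the KD course. Over days 4 to 6, members called were 4 with quantile normalization, 4 with no background correction and 4 with an offset of 50. For late minus early, 1 member was called with quantile normalization, 1 with the dim-probe filter and 1 without the day 2 arrays, TWIST1 in each case.

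The share of called probes that were higher over all days was 48.6%, and 37.0% to 55.6% under the alternatives. A fit with the BeadChip as a block was not run, since the column names do not give the chip. Changes of 0.5 on a single day are hard to call with 3 replicates a side, so a member not called on a day is not shown to be equal.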
